A study of Mus musculus with 12 samples.

Results

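Cardiac precursor cells (CPs) that carried both Nkx2-5 and Tbx5 transcripts were compared with CPs that carried Nkx2-5 without Tbx5, both picked from CD1 mouse embryos at the early head fold (EHF) stage. The first population consists of the 3 EHF Nkx2-5+/Tbx5+ CPs, called double-positive here, and the second of the 3 EHF Nkx2-5+ CPs, called Nkx2-5-only here. Together they are 6 of the 12 single cells of the series, the other 6 being Nkx2-5+ or Tbx5+ cells of the earlier early allantoic bud (EB) stage. Each cell was drawn into a capillary pipette after trypsin had dissociated the embryonic tissue, its cDNA was primed with oligo-dT and amplified by PCR, and PCR on that cDNA chose it: all 6 carried Cfc1 and lacked Sox17 and Sox2. The populations were therefore defined by transcripts in the same cDNA that was sequenced, and no lineage label or reporter allele marked them. All values are RPM, the reads of a gene scaled to the aligned reads of its cell, without correction for gene length, and always stand in the order of cells 1, 2 and 3 of a population. Genes averaging 10 RPM or more across these 6 cells were compared, 4536 of 14063 listed genes. The genes nearest this minimum were Ier5, with a mean of 10.00 RPM, and Klf2, with 9.99 RPM. No label ties a cell to an embryo, so each population counts as 1 sample, and no test of the difference was possible. The size of a difference is given on the log2 scale as double-positive minus Nkx2-5-only, after 10 RPM was added to both means, and a gene is called apart where all 3 cells of one population lie above all 3 of the other.

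At the head fold the cells of the cardiac crescent begin to turn on the genes of the contractile apparatus. Nkx2-5, a homeodomain factor, is shared by both sources of heart muscle. Tbx5, a T-box factor, marks the first heart field (FHF), the cells that differentiate first and give the left ventricle and parts of the atria. The second heart field (SHF) lies medial and dorsal to it, stays proliferative for longer under fibroblast growth factor (FGF) and canonical WNT signals, expresses Isl1 and Fgf10, and adds the outflow tract and right ventricle. GATA and T-box factors, NKX2-5, SRF and MEF2 bind beside each other at many sarcomere genes.

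Aligned reads per cell ranged from 34866324 to 37905007 in the double-positive and from 12475588 to 35445587 in the Nkx2-5-only CPs. Between 2682 and 5650 genes reached 1 RPM in a double-positive cell and between 3073 and 4724 in an Nkx2-5-only cell. A listed 0 allows 3 reads, which were worth 0.0791 to 0.240 RPM in these cells. This limit covers counting error alone, since PCR copies molecules. Double-positive cell 3 and Nkx2-5-only cell 2 had the fewest genes, and their 100 most abundant genes took 44.2% and 49.0% of the listed RPM, against 27.4% to 32.0% in the other 4 cells. These libraries weigh on many means below and are named where they do. Across the 4536 genes, which are not independent replicates, the Spearman correlation averaged 0.285 over the 3 pairs of double-positive cells, 0.324 over the 3 pairs of Nkx2-5-only cells and 0.287 over the 9 pairs across populations. By this measure the double-positive cells resembled each other about as much as they resembled the Nkx2-5-only cells.

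The transcripts that chose the cells were present as their labels say. Tbx5 had 60.3, 3.69 and 8.69 RPM in the double-positive CPs and was listed at 0 in all 3 Nkx2-5-only CPs. Nkx2-5 had 262, 65.1 and 12.2 RPM in the double-positive CPs, against 201, 242 and 34.7 RPM in the Nkx2-5-only CPs, so the populations overlapped. Cfc1, which encodes a NODAL co-receptor, had 94.8, 52.5 and 75.6 RPM and 189, 5.13 and 22.8 RPM. Of 10 listed endoderm markers none reached the minimum, 8 were under 1 RPM in all 6 cells and 5 were at 0, Sox17 reaching at most 0.0895 RPM. Their sum was 8.28, 0 and 0.0574 RPM in the double-positive and 0.0895, 0 and 2.00 RPM in the Nkx2-5-only CPs. Of 13 endothelial and blood markers 10 stayed under 1 RPM in all 6 cells, with sums of 41.8, 11.8 and 0.143 RPM in the double-positive and 89.7, 0.564 and 499 RPM in the Nkx2-5-only CPs. The last of these was almost wholly Kdr, a receptor of vascular and early cardiac progenitors, at 495 RPM in Nkx2-5-only cell 3 and at most 0.0564 RPM in the other 5 cells. Paraxial mesoderm markers summed to 13.4, 116 and 0.0287 RPM in the double-positive and 106, 1.81 and 0.0802 RPM in the Nkx2-5-only CPs, and streak markers to 98.6, 193 and 79.4 RPM and to 371, 27.5 and 177 RPM. The 2 high paraxial sums, 116 and 106 RPM, were almost wholly Foxc2, which is also on the SHF list. Of 16 streak markers 12 stayed under 1 RPM in all 6 cells, and only Cfc1, Sall4 and Snai1 reached the minimum. Cfc1, by which the cells were picked, was most of the streak sum in double-positive cells 1 and 3. Neural and surface ectoderm markers summed to between 90.5 and 1273 RPM and between 146 and 1176 RPM, of which Krt8 and Krt18, keratins of simple epithelia, were the only 2 members at the minimum. Markers of extraembryonic mesoderm summed to between 1127 and 2474 RPM and between 753 and 1406 RPM. In all 6 cells most of that sum was Igf2, a growth factor gene also counted among the imprinted genes below. The part of cells of these other tissues in the differences below was not tested.

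Over all 6 cells more genes were higher than lower in the double-positive CPs, but this balance rested on single cells. Of the 4536 genes, 1808 (39.9%) were at least 2-fold higher and 1059 (23.3%) at least 2-fold lower in mean RPM. The median log2 difference of all genes was 0.48. Without double-positive cell 2 the balance turned, to 1347 genes higher against 1475 lower (median -0.10), and without double-positive cell 1 it was 1468 against 1374 (0.02). Without Nkx2-5-only cell 1 it was 2444 against 843 (1.40). Subtracting the shift of 0.48 from every gene, a step that evens the directions by its construction, gave 1406 and 1403. All 3 double-positive cells lay above all 3 Nkx2-5-only cells for 262 genes (5.78%) and below them for 118 (2.6%). A stricter reading, in which the nearest cells of the populations differed at least 2-fold with 1 RPM added, kept 111 and 40 of them. The shares of all genes, 39.9% and 23.3% at 2-fold and 5.78% and 2.6% apart, are the background for the count of every list below. Of the 1808 higher genes, double-positive cells 1, 2 and 3 held the highest value for 35.1%, 39.9% and 25.0%, and a single cell held over 90% of the sum of the 3 for 13.2%, 17.8% and 10.5%. Without double-positive cell 3 the count of higher genes apart was 991, and without Nkx2-5-only cell 2 that of lower genes apart was 450.

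**Figure D1:**
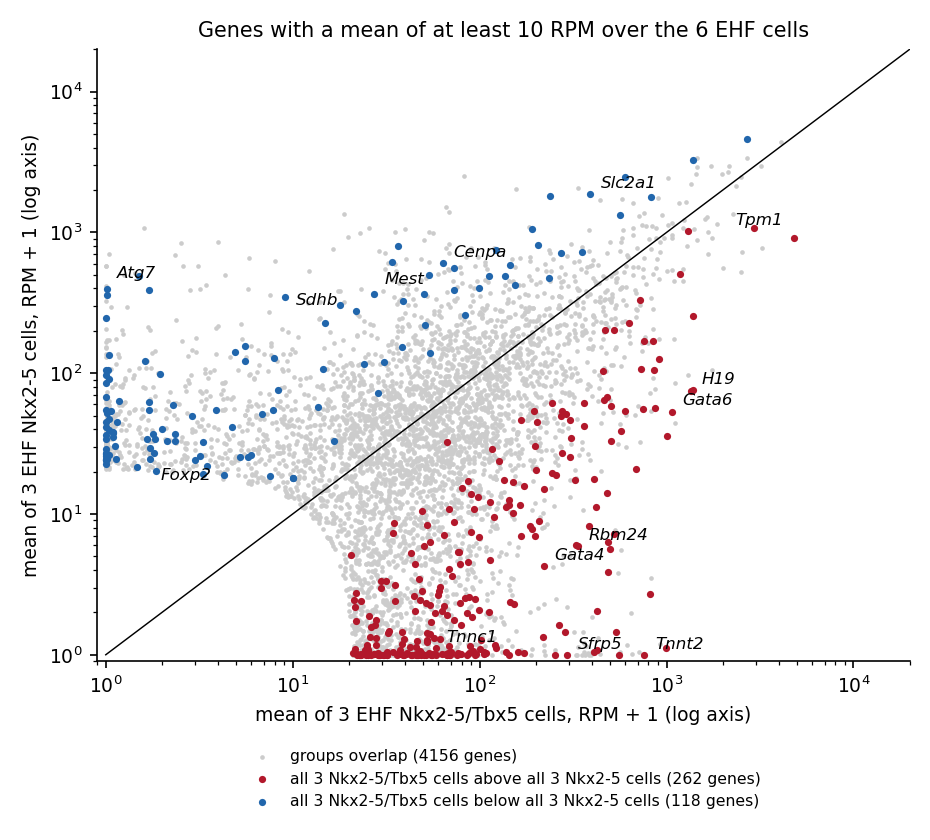
Mean RPM + 1 of the 3 double-positive CPs (x axis, log) against that of the 3 Nkx2-5-only CPs (y axis, log) for the 4536 genes compared; red and blue points are the 262 and 118 genes whose 3 cells all lie above or below, grey points overlap. Tnnt2, Sfrp5 and Tnnc1 sit on the floor of the y axis and Atg7 at the left edge, since they are at or near 0 in one population.

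Genes of the sarcomere had the highest share of higher members among lists with 5 or more genes at the minimum. Of 14 members at the minimum, 13 were at least 2-fold higher in the double-positive CPs and 1 lower (39.9% and 23.3% of all genes), with a median log2 difference of 2.40, or 2.52 with genes at 0 in a whole population set to their bound, against 0.48 for all genes. Of the 14, 6 were at 0 in a whole population and passed the minimum only through the other, which fixed their direction. These were Tnnt2, Tnnc1, Myh6, Myh7 and Mybpc3 among the higher genes, and Actn2, the lower one. Tnnc1, Tnni1 and Myl7 were also named by the study from these same cells, so their direction is no independent evidence. The summed RPM of the list was 3301, 1666 and 20319 in the double-positive CPs and 1610.5, 1377 and 499.9 in the Nkx2-5-only CPs, without overlap. Most of the sum in double-positive cell 2 and in each Nkx2-5-only cell was Tpm1. The sums therefore do not show a separation of the list as a whole. Tpm1, which encodes alpha-tropomyosin of the thin filament, had 1646, 1563 and 11122 RPM in the double-positive CPs, against 1246, 1047 and 463 RPM in the Nkx2-5-only CPs (2.37). It was thus present in every cell of both populations and apart between them. Of the troponin genes, Tnnc1 and Tnnt2 were at 0 in all 3 Nkx2-5-only libraries. Tnnc1, which encodes the calcium-binding troponin C of cardiac and slow muscle, had 57.7, 12.4 and 101 RPM in the double-positive CPs and 0 in each Nkx2-5-only cell, at least 413-fold higher when 3 reads are allowed in each of those cells. Tnnt2, which encodes cardiac troponin T, had 11.1, 0.191 and 2269.6 RPM against 0 in each, at least 5501-fold higher in mean. Cell 3 set that mean, and cell 2 was at the level of a few reads. Tnni1, the slow skeletal troponin I also used by the embryonic heart, had 74.7, 22.5 and 2.47 RPM in the double-positive CPs and overlapped the Nkx2-5-only CPs, at 0.328, 0.0282 and 10.6 RPM.

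Thick filament and actin genes depended more on single cells. Myh6 and Myh7, the alpha and beta heavy chains of cardiac myosin, whose close sequences may share reads, had 2.14, 0 and 1154 RPM and 3.06, 0 and 1056 RPM in the double-positive CPs and 0 in every Nkx2-5-only cell. Mybpc3, the cardiac myosin-binding protein C, had 93.8 RPM in double-positive cell 3 and 0 in the other 5 cells. Actc1, cardiac alpha-actin, had 67.0, 0.0820 and 2681 RPM in the double-positive CPs, against 0.269, 0.0564 and 0.240 RPM (6.51), with cell 2 inside the range of the Nkx2-5-only CPs. Myl4, the atrial essential light chain, had 180.2, 24.0 and 435 RPM against 80.6, 0 and 0 RPM (2.60), and Nkx2-5-only cell 1 was the only one of its population with the transcript. Myl7, the atrial regulatory light chain, had 1124, 38.6 and 1219 RPM in the double-positive CPs, against 144, 326 and 17.6 RPM in the Nkx2-5-only CPs (2.22). The lower member was Actn2, the Z-disc protein alpha-actinin, at 0 in all 3 double-positive CPs, against 124, 0.0846 and 0 RPM in the Nkx2-5-only CPs (-2.36). Without double-positive cell 3 the log2 differences were 0.65 for Tnnt2, 0.80 for Tpm1, 2.09 for Actc1, 0.15 for Myh6, 0.21 for Myh7, 0 for Mybpc3 and 1.60 for Myl4. The difference of Tnni1 (1.66) was 0.72 without double-positive cell 1, that of Actn2 -0.01 and that of Myl4 4.48 without Nkx2-5-only cell 1. The list's median was 1.94 to 2.86 when each cell was left out in turn.

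Only 3 calcium handling and ion channel genes reached the minimum, and all 3 were at least 2-fold higher and 1 apart (39.9% and 5.78% of all genes), a count too small to set the list off from the rest. The summed levels of the list were 1432, 991 and 541 RPM in the double-positive CPs and 316, 20.2 and 67.2 RPM in the Nkx2-5-only CPs. Calr, the calcium-binding chaperone calreticulin, was apart, with 1157, 536 and 502 RPM against 298, 10.7 and 9.86 RPM (2.67). Atp2a2, the calcium pump of the sarcoplasmic reticulum, had 253, 285 and 30.5 RPM in the double-positive CPs and 14.6, 6.18 and 41.4 RPM in the Nkx2-5-only CPs (2.70), overlapping through cell 3 of each. Gjc1, the gap junction protein connexin 45, had 11.9, 154 and 0.0574 RPM against 0.0597, 0.0564 and 1.60 RPM (2.63). Popdc2, a membrane protein of heart and skeletal muscle that binds cyclic AMP, stood outside the lists and was chosen after its values were seen. It had 46.6, 159.9 and 1.43 RPM in the double-positive CPs, against 0.119, 0 and 0 RPM in the Nkx2-5-only CPs (2.98). Without Nkx2-5-only cell 1 the difference of Calr was 5.19, and without double-positive cell 2 those of Gjc1 and Popdc2 were 0.60 and 1.76.

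**Figure D2:**
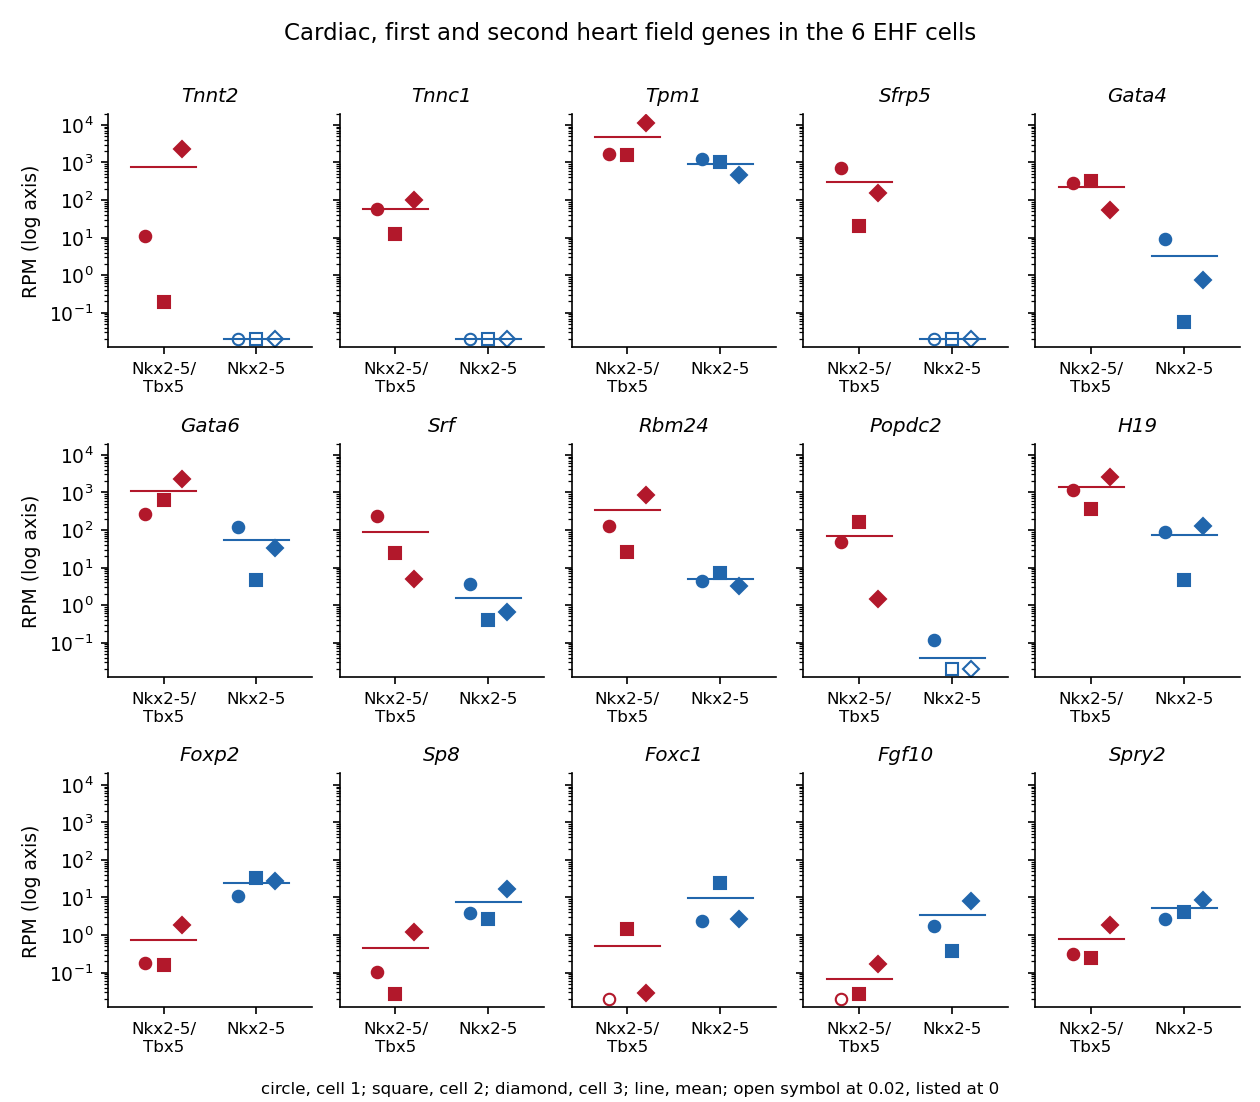
RPM (log axis) of 15 genes in each of the 3 double-positive (left in each panel, red) and 3 Nkx2-5-only CPs (right, blue); circles, squares and diamonds are cells 1, 2 and 3, lines are means and open symbols drawn at 0.02 are listed at 0. In the upper 2 rows every double-positive cell lies above every Nkx2-5-only cell, in the lowest row (Foxp2, Sp8, Foxc1, Fgf10 and Spry2) every one lies below.

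The promoters of 5 genes that were apart and higher in the double-positive CPs are shown because binding motifs of the cardiac factors can be read directly in them. They are RefSeq sequences of GRCm38.p6 (the mm10 assembly), 250 bases before to 50 bases after a start site, read 5′ to 3′ on the strand of the gene. Motifs were searched on both strands, and capitals mark each match. For T-box factors the core element was searched as AGGTGT. The binding site of NKX2-5 was searched as CAAGTG. Sites of GATA factors were searched as AGATAA, and the CArG box of SRF and the MEF2 site were searched by their usual consensus. None of these motifs overlaps another in the promoters shown. A match is a match of letters and no binding was measured.
Sfrp5, secreted WNT antagonist, chr19:42202203-42202502, minus strand, 2 GATA matches: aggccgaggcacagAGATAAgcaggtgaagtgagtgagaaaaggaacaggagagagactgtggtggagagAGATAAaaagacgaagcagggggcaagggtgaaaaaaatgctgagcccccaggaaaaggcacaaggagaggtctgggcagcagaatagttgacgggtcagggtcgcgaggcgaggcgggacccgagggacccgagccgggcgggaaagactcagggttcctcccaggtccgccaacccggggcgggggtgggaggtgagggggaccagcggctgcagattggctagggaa
Tnnt2, cardiac troponin T, chr1:135836084-135836383, plus strand, first of 2 promoters, 1 GATA match: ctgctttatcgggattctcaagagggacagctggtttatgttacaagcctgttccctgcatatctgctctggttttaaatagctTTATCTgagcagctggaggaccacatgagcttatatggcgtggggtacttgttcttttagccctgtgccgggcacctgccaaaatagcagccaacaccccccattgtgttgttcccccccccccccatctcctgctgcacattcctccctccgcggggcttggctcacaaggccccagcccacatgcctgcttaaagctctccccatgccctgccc
Tnnc1, troponin C, chr14:31208062-31208361, plus strand, no match: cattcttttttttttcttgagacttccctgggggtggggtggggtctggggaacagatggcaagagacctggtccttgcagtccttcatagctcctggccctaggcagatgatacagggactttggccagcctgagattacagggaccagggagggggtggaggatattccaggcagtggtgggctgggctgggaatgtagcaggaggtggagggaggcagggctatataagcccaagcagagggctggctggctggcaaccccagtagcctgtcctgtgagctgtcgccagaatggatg
Rbm24, RNA-binding splicing regulator, chr13:46418050-46418349, plus strand, 1 T-box match: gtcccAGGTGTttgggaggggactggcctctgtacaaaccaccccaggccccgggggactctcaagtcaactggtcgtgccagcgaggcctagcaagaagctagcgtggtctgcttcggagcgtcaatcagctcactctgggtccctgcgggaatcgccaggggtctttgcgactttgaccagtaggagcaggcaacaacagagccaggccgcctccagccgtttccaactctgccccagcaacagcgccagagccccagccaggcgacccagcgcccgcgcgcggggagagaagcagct
Popdc2, membrane protein of muscle, chr16:38361940-38362239, plus strand, 1 GATA and 1 NKX2-5 match: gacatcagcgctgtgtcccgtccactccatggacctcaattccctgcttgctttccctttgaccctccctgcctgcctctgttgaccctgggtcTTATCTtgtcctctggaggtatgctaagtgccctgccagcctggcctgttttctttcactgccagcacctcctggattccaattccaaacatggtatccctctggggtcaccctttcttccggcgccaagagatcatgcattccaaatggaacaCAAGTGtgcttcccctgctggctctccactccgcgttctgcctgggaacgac

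The motifs were then counted over all genes apart. RefSeq promoters were found for 197 of the 262 higher and 90 of the 118 lower genes, 254 and 107 promoters. The AGGTGT word stood in 8.66% of promoters of higher genes, 10.3% of those of lower genes, 9.86% of the 4401 promoters of all genes at the minimum and 13.7% of all 32851 promoters. The NKX2-5 site stood in 13.0%, 13.1%, 10.9% and 13.6%, and the GATA site in 7.48%, 12.1%, 5.84% and 11.2% of the same sets. The GATA word was thus more frequent in the promoters of lower genes, with 13 of 107, than in those of all genes at the minimum, and near its share of all promoters. The CArG box was found in 2 promoters of higher and 1 of lower genes, 0.79% and 0.93%, against 1.50% at the minimum and 1.63% of all promoters. The MEF2 site was found in 5 and 1, 1.97% and 0.93%, against 1.32% and 3.19%. No test of these shares was made. Mean GC content was 61.3% and 62.1% in the promoters of higher and lower genes and 61.7% in those of all genes at the minimum.

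Transcription factors of heart development were mostly higher. Of 11 members at the minimum, 7 were at least 2-fold higher and 0 lower, 3 of them apart (39.9%, 23.3% and 5.78% of all genes). The median was 1.53 (0.48 for all genes), or 1.47 to 3.16 with 1 cell left out in turn. Gata4, Gata6, Smarcd3 and Isl1 were also listed by the study as enriched in these same double-positive CPs, so their direction is no independent evidence. Gata4, a zinc finger factor that binds beside NKX2-5 and TBX5, had 291, 314 and 55.4 RPM in the double-positive CPs, against 9.01, 0.0564 and 0.721 RPM in the Nkx2-5-only CPs (4.12). Gata6, its relative, had 258, 625 and 2315 RPM against 119.6, 4.66 and 33.0 RPM (4.11). Srf, which drives actin and sarcomere genes, had 230.0, 25.1 and 4.96 RPM against 3.73, 0.395 and 0.641 RPM (3.06). All 3 factors had reads in every cell of both populations, and the lowest double-positive cell stood above the highest Nkx2-5-only cell. Smarcd3, a BAF complex subunit enriched in the heart, had 352, 177 and 770.1 RPM in the double-positive CPs, against 206, 22.0 and 2.32 RPM in the Nkx2-5-only CPs (2.35), overlapping by 1 cell. Cited2, a co-activator of GATA and TFAP2 factors, likewise had 163, 57.8 and 210.0 RPM against 77.1, 2.71 and 12.8 RPM (1.91). Hand1, a bHLH factor of the left ventricle, was in 1 cell of each population at a high level, with 0, 0 and 127 RPM against 139, 0.649 and 0 RPM (-0.11). Mef2c was low throughout, at 1.24, 1.80 and 2.07 RPM in the double-positive CPs and 0.657, 0.0846 and 0 RPM in the Nkx2-5-only CPs. Without Nkx2-5-only cell 1, Smarcd3 and Cited2 differed by 4.32 and 3.11, and without double-positive cell 1 Srf differed by 1.11.

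Among FHF genes, 3 of 4 at the minimum were at least 2-fold higher and 0 lower (39.9% and 23.3% of all genes). Their median was 2.06, or 4.90 with genes at 0 in a whole population at their bound, and 1.81 to 3.33 with 1 cell left out in turn. Several of them were picked in the study on the very cells compared, which makes their direction no independent evidence. Tbx5 is also the transcript that defined the populations. Tbx5 and Sfrp5 were at 0 in all Nkx2-5-only CPs and passed the minimum only through the double-positive CPs, so their direction was fixed in advance. Sfrp5 had 702, 20.9 and 158 RPM in the double-positive CPs and 0 in all 3 Nkx2-5-only CPs, at least 2124-fold higher with 3 reads allowed in each of those cells. Tbx5 differed by 1.78, and by 0.70 without double-positive cell 1.

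SHF genes went both ways. Of 5 members at the minimum, 3 were at least 2-fold higher and 1 lower, 1 apart in each direction, against 39.9% and 23.3% of all genes. Isl1 itself had 0.0528, 89.5 and 31.8 RPM in the double-positive CPs, against 2.09, 10.9 and 14.0 RPM in the Nkx2-5-only CPs (1.41). It was therefore both the lowest and the highest in double-positive cells, and without cell 2 the difference was 0.45. Wnt2, a WNT ligand of the posterior SHF and inflow region, was the higher gene apart, with 106 RPM in double-positive cell 1 and at most 0.0860 RPM in the other 5 cells (2.18, and 0.01 without that cell). Its lowest double-positive value was 0.0547 RPM, against 0.0282 RPM in Nkx2-5-only cell 2, a gap within the limit of 3 reads. Several members were apart in the other direction, most of them under the minimum. Of the 13 SHF genes under the minimum with reads in any of the 6 cells, 4 were apart and lower (Fgf10, Foxc1, Sp8 and Nr2f2) and 1, Mef2c, was apart and higher. Of 10 such FGF genes, 3 were apart and lower (Fgf10, Fgf9 and Spry2) and 0 higher. Of all 7448 such genes, 3.69% were apart and lower and 2.65% apart and higher. Fgf10, Fgf8, Fgf9, Foxp2, Sp8 and Spry2 were also listed by the study as enriched in these same Nkx2-5-only CPs. Their direction is therefore no independent evidence. Nr2f2 was at 0 in the double-positive CPs and at most 0.0802 RPM in the Nkx2-5-only CPs, so that gap was within the limit of 3 reads. Foxp2, a forkhead repressor and the lower member at the minimum, had 0.185, 0.164 and 1.81 RPM in the double-positive CPs, against 11.1, 33.1 and 26.9 RPM in the Nkx2-5-only CPs (-1.65). Fgf10, the ligand that marks the anterior SHF, had 0, 0.0273 and 0.172 RPM against 1.76, 0.367 and 7.94 RPM (-0.41). Foxc1, a forkhead factor of cardiac and paraxial mesoderm, had 0, 1.48 and 0.0287 RPM against 2.33, 24.3 and 2.65 RPM (-0.91). Sp8, a zinc finger factor upstream of Fgf8 in the limb, had 0.106, 0.0273 and 1.23 RPM against 3.88, 2.65 and 16.8 RPM (-0.77). Foxc1, Sp8 and Nr2f2, like Spry2 and Fgf9 of the FGF pathway, were chosen after their values were seen.

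Low values were also found among readouts and ligands of FGF and WNT signalling. Spry2, a feedback inhibitor induced by FGF signalling, had 0.317, 0.246 and 1.81 RPM in the double-positive CPs, against 2.75, 4.06 and 8.50 RPM in the Nkx2-5-only CPs (-0.49). Fgf9 was at most 0.115 RPM in the double-positive CPs, against 1.19, 0.536 and 1.92 RPM. Fgf8, the main ligand of the SHF, had 0, 6.48 and 0.0574 RPM against 0, 15.2 and 16.8 RPM (-0.76), and cell 1 of both populations lacked it. Tcf7l2, a nuclear partner of beta-catenin, had 0.0528, 0.246 and 0.774 RPM in the double-positive CPs, against 2.84, 21.2 and 7.45 RPM in the Nkx2-5-only CPs (-0.99). Most of these values are low in absolute terms, and 1 read was worth 0.0264 to 0.0802 RPM. Of the FGF list only 3 members reached the minimum, 0 at least 2-fold higher and 1 lower, with a median of 0.38, or -1.05 to 1.02 with 1 cell left out in turn.

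Of 27 actin cytoskeleton and adhesion genes, 14 were at least 2-fold higher and 2 lower (39.9% and 23.3% of all genes). Of these genes 7 were apart and higher and 0 apart and lower (5.78% and 2.6% of all genes). The median was 1.17, against 0.48 for all genes. Their summed level was 9051, 9493 and 13457 RPM in the double-positive CPs and 6073, 2430 and 4961 RPM in the Nkx2-5-only CPs. Flna, the actin crosslinker filamin A, had 287, 289 and 3563 RPM in the double-positive CPs, against 60.2, 35.1 and 128 RPM in the Nkx2-5-only CPs (4.04). Zyx, the focal adhesion protein zyxin, had 389, 336 and 1869.7 RPM against 167, 0.564 and 0.0802 RPM (3.73). Flnc, the muscle filamin of the Z-disc, had 53.3, 18.5 and 27.8 RPM against 3.22, 10.0 and 5.69 RPM (1.40). Each of these was apart, and so were Pdlim7, a PDZ and LIM protein of stress fibres (3.25), Myl6, a non-muscle myosin light chain (3.06), Actb (1.44) and Csrp2 (1.17), a LIM protein of smooth muscle and heart. Actb, beta-actin, is often taken as constant and had 991, 423 and 479 RPM in the double-positive CPs, against 385, 267 and 26.1 RPM in the Nkx2-5-only CPs. Gapdh, another such gene, had 311, 255 and 14.3 RPM against 191, 178 and 113 RPM (0.26) and overlapped. Flna differed by 1.82 without double-positive cell 3, Zyx by 6.40 without Nkx2-5-only cell 1, Actb by 0.93 without Nkx2-5-only cell 3 and by 0.97 without double-positive cell 1, and Csrp2 by 0.82 without double-positive cell 2 and 0.94 without Nkx2-5-only cell 2.

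Of 7 regulators of muscle splicing at the minimum, 5 were at least 2-fold higher and 1 lower, with a median of 1.28, or 0.26 to 2.03 with 1 cell left out in turn. Of all genes 39.9% were higher and 23.3% lower. Rbm24, which switches many transcripts to their muscle isoforms, had 127, 25.1 and 850.1 RPM in the double-positive CPs, against 4.27, 7.36 and 3.13 RPM in the Nkx2-5-only CPs (4.53), and was apart. Celf2, another RNA-binding regulator of splicing, was apart the other way below the minimum, with 0.0791, 0.109 and 0.545 RPM against 9.25, 1.81 and 2.89 RPM (-0.52). Its relative Celf1 had 175, 509 and 0.430 RPM against 5.07, 3.16 and 14.2 RPM (3.77), with double-positive cell 3 lowest of all 6. The lower member was Qk, the RNA-binding protein quaking, at 1.37, 5.90 and 7.08 RPM in the double-positive CPs, against 1.07, 1169.5 and 10.6 RPM in the Nkx2-5-only CPs (-4.77). Without Nkx2-5-only cell 2 the difference of Qk was -0.10, and without double-positive cell 3 that of Rbm24 was 2.52 and without cell 2 that of Celf1 was 2.49.

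Canonical WNT genes did not lean to one side. Of 13 at the minimum, 3 were at least 2-fold higher and 3 lower, none apart, with a median of 0.18 and a range of -0.89 to 1.12 when single cells were left out. Ctnnb1, beta-catenin, had 149, 605 and 16.5 RPM in the double-positive CPs and 359, 21.2 and 268 RPM in the Nkx2-5-only CPs (0.24). Its nuclear partner Lef1, at 1.61, 52.0 and 0.0574 RPM against 4.42, 1.18 and 17.1 RPM (0.67), overlapped as well. Tcf3, which the study names with WNT components, is outside this list. The symbol lies on chromosome 10 and is a separate gene from the list member Tcf7l1, so it is not read as a WNT gene here. Tcf3 had 139, 170.2 and 0.746 RPM against 203, 250.5 and 119 RPM (-0.82) and overlapped. Of 11 secreted antagonists and non-canonical components, 6 were at least 2-fold higher and 5 lower, and 3 of the higher ones were apart, namely Sfrp5, Ror2 and Prickle1. Ror2, the tyrosine kinase receptor for WNT5A, had 191, 222 and 0.172 RPM in the double-positive CPs, against 0.0895, 0.0282 and 0 RPM in the Nkx2-5-only CPs (3.88). Its ligand gene Wnt5a had 25.4, 85.2 and 0.0287 RPM against 0, 0 and 0.240 RPM (2.22). Receptor and ligand were thus shared by double-positive cells 1 and 2 and were at 1 to 6 reads in cell 3. Ror2 was therefore apart by a gap of a few reads, 0.172 against 0.0895 RPM. Prickle1, of the planar polarity branch, had 71.3 RPM in double-positive cell 2 and at most 0.712 RPM elsewhere (1.77, and 0.05 without that cell). Wnt5a differed by 1.17 without it.

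The 5 lower genes were the antagonists Dkk1, Frzb and Sfrp1, the ligand gene Wnt4 (-2.03) and the receptor gene Ryk (-2.19). Wnt4 had 92.2 RPM in Nkx2-5-only cell 2 and at most 0.240 RPM elsewhere, and Ryk had 734 RPM in Nkx2-5-only cell 3, so each rested on 1 cell, without which they differed by -0.02 and 1.50. Dkk1, an inhibitor of the LRP co-receptors, had 0, 0.0547 and 0 RPM in the double-positive CPs, against 0, 5.53 and 507 RPM in the Nkx2-5-only CPs (-4.18). Frzb had 7.33, 0 and 0 RPM against 0.358, 3.22 and 190.1 RPM (-2.58). Sfrp1, a relative of Sfrp5, had 76.6, 384 and 0.201 RPM against 465, 1168 and 68.9 RPM (-1.82). Without Nkx2-5-only cell 3 the differences of Dkk1 and Frzb were -0.35 and 0.08, and that of Sfrp1 was -0.76 without Nkx2-5-only cell 2 and -3.58 without double-positive cell 2.

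BMP and activin genes split, with 6 of 11 at least 2-fold higher and 4 lower (39.9% and 23.3% of all genes). Of the higher ones 2 were apart (5.78% of all genes), and both were SMADs. Smad4, the shared partner of all receptor-regulated SMADs, had 416, 419.5 and 601 RPM in the double-positive CPs, against 163, 36.9 and 0.240 RPM in the Nkx2-5-only CPs (2.67). Smad7, an inhibitory SMAD induced by BMP and TGF-beta, had 59.0, 1.34 and 12.2 RPM against 0, 0 and 0.240 RPM (1.76). Bmp4, a ligand that induces cardiac fate, had 77.0, 247 and 32.9 RPM against 76.0, 0.0846 and 0 RPM (1.87), so Nkx2-5-only cell 1 alone reached the level of the double-positive CPs. Id1, a BMP target, had 61.4, 392 and 868 RPM in the double-positive CPs, against 201, 4300.1 and 622 RPM in the Nkx2-5-only CPs (-1.93). Acvr2b, an activin receptor, had 15.5, 82.3 and 7.89 RPM against 153, 71.5 and 223 RPM (-1.81, and -2.87 without double-positive cell 2). Without Nkx2-5-only cell 1 Smad4 and Bmp4 differed by 4.10 and 3.68, without double-positive cell 1 Smad7 by 0.73, without cell 2 Bmp4 by 0.88, and without Nkx2-5-only cell 2 Id1 by 0.10.

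Of 7 NOTCH pathway genes, 4 were at least 2-fold higher and 2 lower, counts near the 39.9% and 23.3% of all genes. Aph1a, a gamma-secretase subunit, was apart with 26.4, 31.6 and 219.9 RPM in the double-positive CPs, against 21.5, 0.137 and 8.18 RPM in the Nkx2-5-only CPs (2.36, and 0.97 without double-positive cell 3). Notch1 had 153, 0 and 0 RPM against 0, 0.0846 and 53.1 RPM (1.13), so 1 cell in each population carried nearly all of it. Its transcriptional partner Rbpj had 13.3, 85.2 and 0.258 RPM against 17.5, 0.818 and 8.98 RPM (1.17). The direction of Notch1 turned without double-positive cell 1 (-1.47) and that of Rbpj without double-positive cell 2 (-0.18), and without Nkx2-5-only cell 3 Notch1 differed by 2.60. The target gene Hes1 had 0, 21.0 and 0.229 RPM in the double-positive CPs, against 0.0597, 1879 and 3.61 RPM in the Nkx2-5-only CPs (-5.22), all from Nkx2-5-only cell 2, without which it differed by 0.53.

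Genes of protein folding and secretion in the endoplasmic reticulum were higher in the double-positive CPs, 17 of 31 at least 2-fold against 2 lower, 8 apart against 1, with a median of 1.27, or 0.94 to 2.20 with 1 cell left out in turn. The shares of all genes were 39.9% and 23.3% at 2-fold, and 5.78% and 2.6% apart. The list summed to 11650, 7889 and 11920 RPM in the double-positive CPs and 6547, 1870 and 3363 RPM in the Nkx2-5-only CPs, without overlap. Ykt6, a SNARE of transport between the reticulum and Golgi, had 739, 66.2 and 427 RPM in the double-positive CPs, against 41.4, 0 and 8.34 RPM in the Nkx2-5-only CPs (3.98). Lman1, a cargo receptor of the same step, had 100.2, 506 and 897 RPM against 91.3, 0.536 and 3.37 RPM (3.61). Furin, the protease that cleaves BMP and TGF-beta precursors, had 165, 59.4 and 34.5 RPM against 5.25, 0.0846 and 5.45 RPM (2.82). Serpinh1, the collagen chaperone, had 406, 796 and 1348 RPM in the double-positive CPs, against 379.9, 38.9 and 89.7 RPM in the Nkx2-5-only CPs (2.26, and 3.53 without Nkx2-5-only cell 1). Creld2, a target of the unfolded protein response, was even across the double-positive CPs at 67.1, 67.6 and 68.5 RPM, against 0.448, 28.9 and 0.0802 RPM (1.97). Ppib, a prolyl isomerase of collagen folding, was apart as well (2.11). Atf4, a transcription factor of that response and a member of the stress list, had 342, 723 and 309.9 RPM against 137, 0.310 and 171 RPM (2.06). The member apart in the other direction was Sec61b, a subunit of the translocon, with 368, 343 and 348 RPM in the double-positive CPs, against 477, 1263 and 429 RPM in the Nkx2-5-only CPs (-1.01, and -0.35 without Nkx2-5-only cell 2).

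Of 18 matrix and integrin genes, 10 were at least 2-fold higher and 3 lower, 2 apart and higher (39.9%, 23.3% and 5.78% of all genes). The median was 1.60, or 0.72 to 1.89 with 1 cell left out in turn. Itga5, the fibronectin receptor subunit, had 69.0, 56.7 and 84.0 RPM in the double-positive CPs, against 0.179, 4.15 and 3.61 RPM in the Nkx2-5-only CPs (2.66). Its 3 double-positive values lay within a narrow range and far above the rest. Igfbp5, a binding protein of insulin-like growth factors, had 49.7, 115 and 0.172 RPM against 0, 0.0282 and 0 RPM (2.70), apart by a gap of a few reads. Vcan, the matrix proteoglycan of the cardiac jelly, was low but apart, with 1.71, 6.26 and 3.15 RPM against 0.358, 0.254 and 0.802 RPM. Lamb1, a laminin chain, had 0.0528, 1.72 and 17.9 RPM in the double-positive CPs, against 1.55, 1075 and 2.48 RPM in the Nkx2-5-only CPs (-4.48, and 0.46 without Nkx2-5-only cell 2). Of 6 cadherins and mesenchymal transition factors, 2 were at least 2-fold higher and 3 lower, none apart, with a median of -0.76, or -1.45 to 0.35 with 1 cell left out in turn. Twist1, a bHLH factor of mesenchyme, had 0.818, 201 and 0.0287 RPM against 59.4, 1958 and 463 RPM (-3.44, and -1.81 without Nkx2-5-only cell 2 and -6.33 without double-positive cell 2).

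Metabolic lists did not lean to one side as wholes, and single members were lower. Of 67 nuclear genes of oxidative phosphorylation, 11 were at least 2-fold higher and 11 lower, with a median of 0.01, or -0.53 to 1.12 with 1 cell left out in turn. In 4 of them (2.6% of all genes) all double-positive CPs lay below, and in 0 above, and these 4 belong to 2 complexes. Sdhb, the iron-sulphur subunit of succinate dehydrogenase, had 58.2, 4.40 and 0.0287 RPM in the double-positive CPs, against 259, 297 and 266 RPM in the Nkx2-5-only CPs (-3.20). Sdhc, a membrane anchor of the same enzyme, had 160.1, 171 and 2.38 RPM against 500.0, 557 and 416 RPM (-2.05). The Nkx2-5-only values of both genes were even, and each double-positive cell lay well below them. The complex I subunits Ndufc1 and Ndufc2 had 84.9, 28.5 and 0.774 RPM against 271, 520.5 and 176 RPM (-2.79), and 335, 278 and 0.315 RPM against 390.1, 1231 and 814 RPM (-1.94). Double-positive cell 3, the library of its population with the fewest genes, was lowest for all 4.

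Glycolytic genes showed 2 of 15 at least 2-fold higher and 3 lower, with a median of -0.14, or -0.62 to 0.82 with 1 cell left out in turn, and the 2 that were apart were lower. Slc2a1, the glucose transporter of embryonic tissue, had 585, 585 and 0.631 RPM in the double-positive CPs, against 1153, 3647 and 789.5 RPM in the Nkx2-5-only CPs (-2.23, and -1.29 without Nkx2-5-only cell 2). Eno1, enolase, had 35.3, 34.4 and 19.4 RPM against 260.2, 50.6 and 43.8 RPM (-1.69, and -0.53 without Nkx2-5-only cell 1). Pfkl, a phosphofructokinase, had 320.4, 225 and 159 RPM against 33.8, 212 and 58.8 RPM and overlapped (1.13, 0.75 without Nkx2-5-only cell 1, 0.88 without cell 3, 2.12 without cell 2, and 0.86 without double-positive cell 1). Enzymes of fatty acid oxidation were apart in both directions. Hadha, the alpha subunit of the mitochondrial trifunctional protein, had 6.52, 44.6 and 1547 RPM in the double-positive CPs, against 0.0597, 0.0846 and 1.20 RPM in the Nkx2-5-only CPs (5.70, and 1.77 without double-positive cell 3). Cpt2, which returns acyl groups to CoA inside the mitochondrion, had 74.4, 81.8 and 341 RPM against 17.9, 0 and 0 RPM (3.46). Acadm, the medium-chain dehydrogenase, had 0.0791, 0.0547 and 0 RPM against 73.5, 1.18 and 0.721 RPM (-1.81, and -0.12 without Nkx2-5-only cell 1). In all, 3 of 9 genes of that list were at least 2-fold higher and 2 lower, with a median of 0.39, or 0.05 to 1.96 with 1 cell left out in turn.

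**Figure D3:**
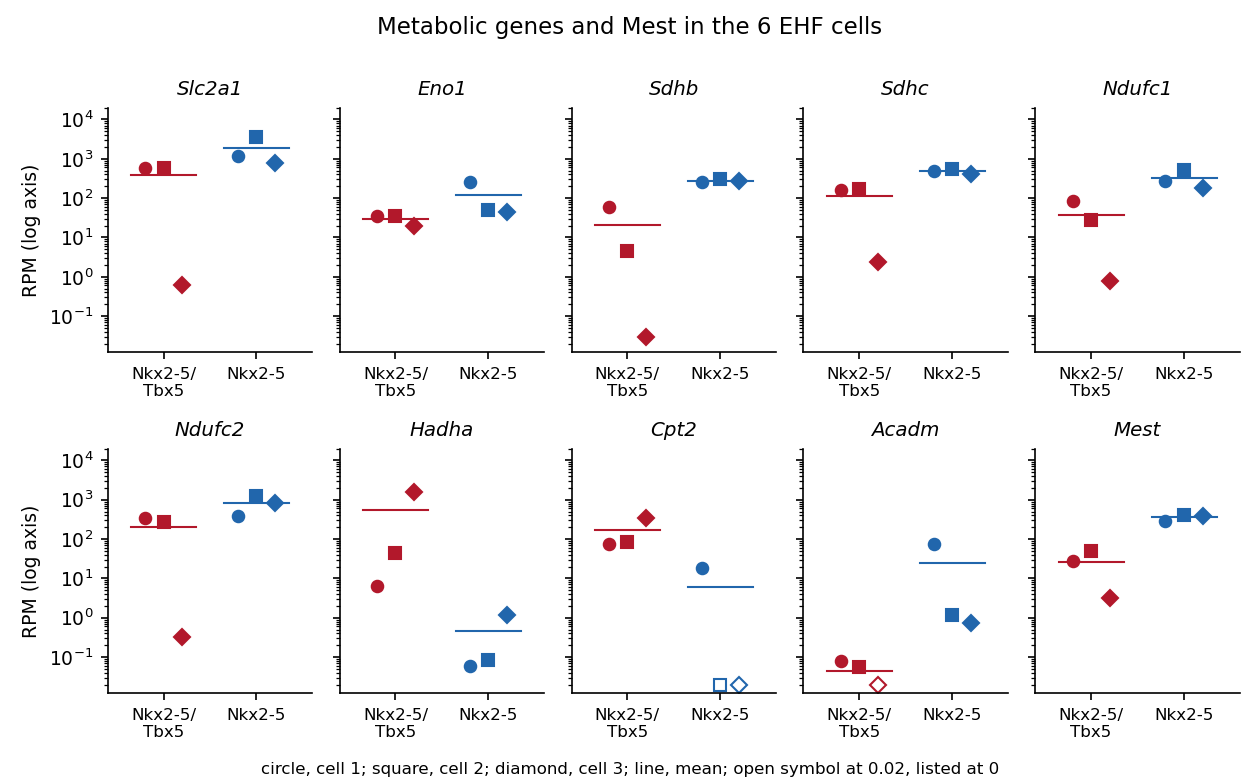
RPM (log axis) of 9 metabolic genes and Mest in each of the 3 double-positive (left in each panel, red) and 3 Nkx2-5-only CPs (right, blue), with circles, squares and diamonds for cells 1, 2 and 3, lines for means and open symbols at 0.02 for genes listed at 0. Only Hadha and Cpt2 lie higher in the double-positive CPs. Their cell 3, the double-positive library with the fewest genes, is lowest of all for Slc2a1, Eno1, Sdhb, Sdhc, Ndufc1, Ndufc2, Acadm and Mest.

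Of 13 BAF and PBAF subunits, 8 were at least 2-fold higher and 3 lower (39.9% and 23.3% of all genes), so the lower count was near the share of all genes. Of these subunits 3 were apart and higher and 1 apart and lower (5.78% and 2.6% of all genes). The median was 1.88, or 1.26 to 2.02 with 1 cell left out in turn. Smarca4, the ATPase BRG1, had 336, 275 and 117 RPM in the double-positive CPs, against 63.8, 7.73 and 110.4 RPM in the Nkx2-5-only CPs (1.84). Pbrm1, which defines the PBAF form, had 28.3, 123 and 51.5 RPM against 0.746, 1.55 and 6.89 RPM (2.57). Smarce1, a subunit with an HMG domain, had 56.0, 84.5 and 20.2 RPM against 4.27, 8.72 and 3.05 RPM (2.05). The core subunit gene Smarcc1 ran the other way, with 1.45, 0.629 and 0.0574 RPM in the double-positive CPs, against 32.9, 125 and 2.16 RPM in the Nkx2-5-only CPs (-2.57, and -1.36 without Nkx2-5-only cell 2).

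Of 32 genes that modify or read histones, 19 were at least 2-fold higher and 4 lower, 3 apart and higher (39.9%, 23.3% and 5.78% of all genes). The median was 1.41. Men1, the menin subunit of MLL methyltransferase complexes, had 321, 83.1 and 746 RPM in the double-positive CPs, against 17.0, 0.367 and 4.41 RPM in the Nkx2-5-only CPs (4.51). Kat7, an acetyltransferase of histone H3 and H4, had 204, 45.4 and 22.7 RPM against 2.54, 0 and 0 RPM (3.21, and 2.02 without double-positive cell 1). Chd2, a chromodomain remodeller, had 117, 70.5 and 108 RPM against 17.3, 0 and 0.0802 RPM (2.78). Chd4, the ATPase of the NuRD repressor, was among the lower genes with 415, 256 and 337 RPM in the double-positive CPs, against 244, 5100.1 and 865 RPM in the Nkx2-5-only CPs (-2.59, and -0.71 without Nkx2-5-only cell 2).

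Imprinted genes had 4 of 15 members at least 2-fold higher and 4 lower, and 2 of them were apart in opposite directions. H19, a maternally expressed non-coding RNA, had 1138, 357 and 2575 RPM in the double-positive CPs, against 88.5, 4.51 and 129.9 RPM in the Nkx2-5-only CPs (4.02). Mest, a paternally expressed gene of embryonic mesoderm, had 27.1, 48.8 and 3.15 RPM against 279.6, 412 and 393 RPM (-3.35). Igf2, the growth factor gene next to H19, had 2352, 1031 and 961 RPM against 1134, 761 and 739 RPM (0.72) and overlapped. Cdkn1c, an inhibitor of the cell cycle, had 593, 697 and 495 RPM in the double-positive CPs, against 565, 0.649 and 139 RPM in the Nkx2-5-only CPs (1.30, 2.92 without Nkx2-5-only cell 1 and 0.74 without cell 2). Of 4 genes tied to the X chromosome, 2 were at least 2-fold higher and 0 lower, none apart.

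Cell cycle lists lay near the background. Of 31 replication genes, 13 were at least 2-fold higher and 7 lower, and of 26 mitotic genes 10 and 7, with medians of 0.31 and 0.58, or -0.79 to 1.60 and -0.82 to 1.47 with 1 cell left out in turn. Cenpa, the centromeric histone H3, was apart and lower, with 88.1, 95.2 and 3.93 RPM in the double-positive CPs, against 563, 682 and 570.3 RPM in the Nkx2-5-only CPs (-3.09). Rpa1, which coats single-stranded DNA, had 2.16, 129.8 and 1137 RPM against 1.58, 0.282 and 1.28 RPM (5.29, and 2.78 without double-positive cell 3). Kif23, a kinesin of cytokinesis, was apart and higher (1.72, and 1.02 without double-positive cell 2). Cenpf, a kinetochore protein, had 0.211, 201 and 0.373 RPM in the double-positive CPs, against 132, 3906 and 153 RPM in the Nkx2-5-only CPs (-4.19), overlapping through double-positive cell 2. It differed by -0.98 without Nkx2-5-only cell 2 and by -7.09 without double-positive cell 2.

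Of 74 cytosolic ribosomal protein genes, whose reads may be shared with processed pseudogenes, 11 were at least 2-fold higher and 7 lower, 2 and 3 of them apart, with a median of 0.27, or -0.31 to 0.88 with 1 cell left out in turn. Rplp2, with 931, 528 and 238 RPM in the double-positive CPs, against 1719, 1185 and 1109 RPM in the Nkx2-5-only CPs, was apart (-1.23), as were Rpl10a (-1.10) and Rps13 (-1.40). Rpl41 was apart in the other direction, with 4706, 2110.2 and 2043 RPM against 1429.7, 1415 and 352 RPM (1.46). These differences were near 2-fold and single cells moved them across it, to -0.87 for Rplp2 and -0.79 for Rpl10a without double-positive cell 3, -0.82 for Rpl10a and -0.94 for Rps13 without Nkx2-5-only cell 1, and 0.96 for Rpl41 without double-positive cell 1.

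Immediate early and stress genes set 1 cell apart rather than a population. Of 20 members, 6 were at least 2-fold higher and 10 lower in the double-positive CPs, with a median of -0.67, or -0.84 to 1.49 with 1 cell left out in turn. Fos, an early response transcription factor, had 0, 243 and 0.229 RPM in the double-positive CPs, against 0, 7495 and 0.0802 RPM in the Nkx2-5-only CPs (-4.78). It was the most abundant listed transcript of Nkx2-5-only cell 2. In the same cell its partner Fosb had 3158 RPM, the heat shock gene Hspa1a 1182 RPM and the damage response gene Gadd45a 1261 RPM, against at most 106, 4.95 and 4.01 RPM in the other 5 cells. Without that cell the differences of Fos, Fosb, Hspa1a and Gadd45a turned to 3.18, 2.28, 0.26 and 0.31, and that of Fos without double-positive cell 2 was -7.95. This library is also the source of the high values of Hes1, Id1, Lamb1, Qk, Chd4 and Cenpf above, and the part of handling or of cell state in it was not tested.

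**Figure D4:**
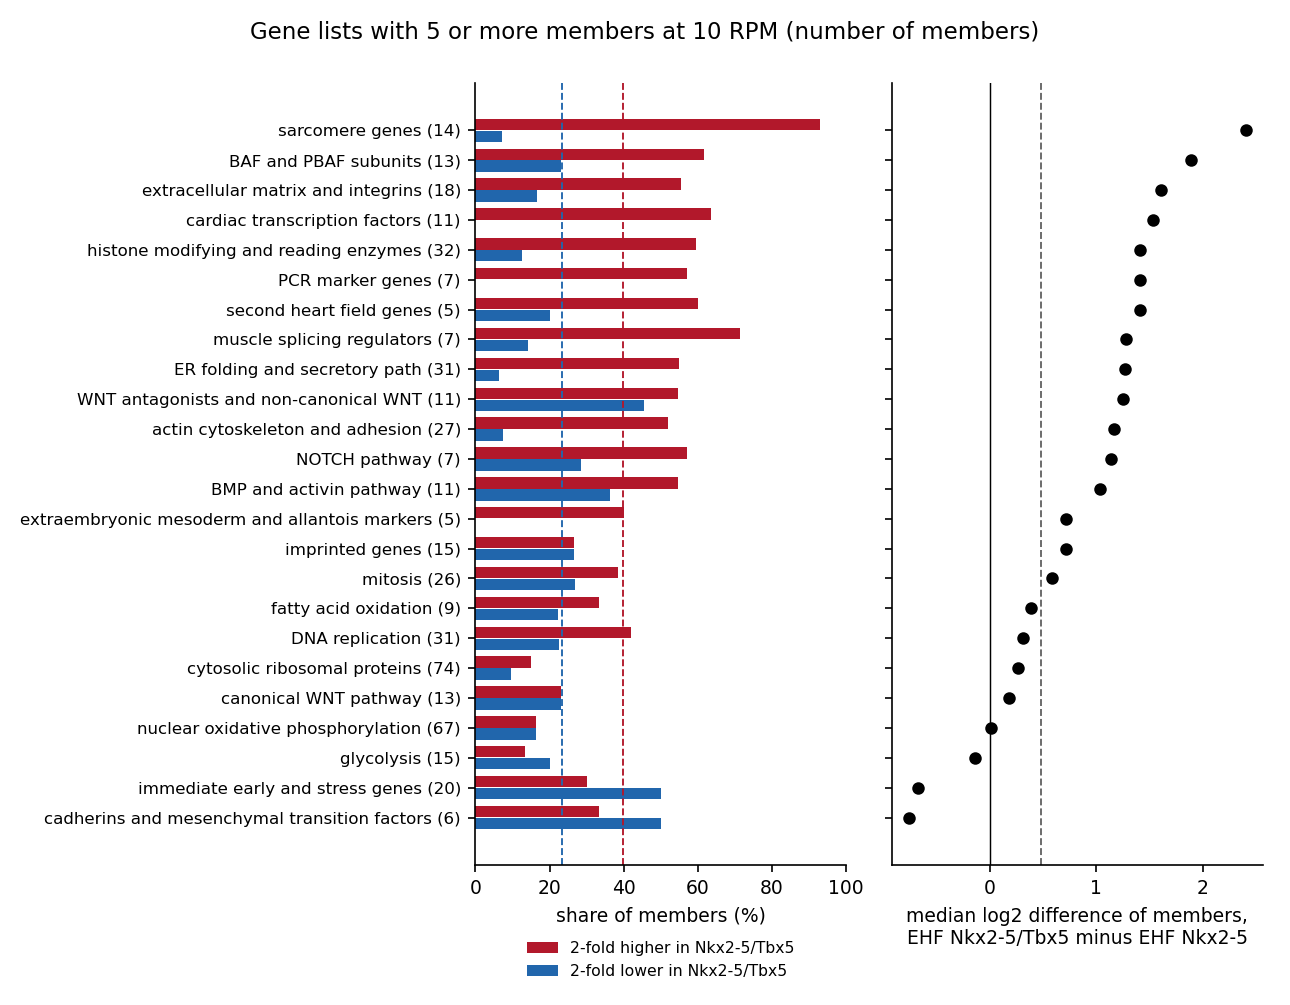
Left, share of the members of each list with 5 or more genes at the minimum that were at least 2-fold higher (red) or lower (blue) in the double-positive CPs, with the shares of all 4536 genes as dashed lines (39.9% and 23.3%). Right, median log2 difference of the list (black points) with that of all genes, 0.48 (-0.10 to 1.40 with 1 cell left out in turn), as a dashed line; sarcomere genes had the highest share and median, and glycolytic, stress and cadherin lists had medians below 0. Members at 0 in a whole population passed the minimum only through the other, which fixed their direction.

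Several of the genes with the largest differences were not heart genes, and most of these means came from a single cell. Among higher genes that were apart, Exoc2, a subunit of the exocyst, had 23.1, 5.41 and 2939.7 RPM in the double-positive CPs, against 0, 0.197 and 0.160 RPM in the Nkx2-5-only CPs (6.63). Tanc2 had 173, 40.4 and 2219.8 RPM against 0.0298, 5.13 and 0 RPM (6.13), and Lgmn, the lysosomal protease legumain, had 117, 26.6 and 1316 RPM against 0.298, 0.0846 and 8.18 RPM (5.27). Ldb1, a cofactor of LIM homeodomain factors such as ISL1, had 0.264, 0.355 and 1267 RPM against 0, 0 and 0.240 RPM (5.42), and its cell 1 stood above Nkx2-5-only cell 3 by less than the RPM of 1 read. Ilkap, a phosphatase that binds integrin-linked kinase, was more even, with 357, 105 and 1038 RPM in the double-positive CPs, against 11.9, 0.254 and 1.68 RPM in the Nkx2-5-only CPs (5.12). So was Mgrn1, a ubiquitin ligase, with 124, 132 and 541 RPM against 0, 0.395 and 1.52 RPM (4.69). Without double-positive cell 3 the differences were 1.26 for Exoc2, 3.32 for Tanc2, 2.67 for Lgmn and 0.03 for Ldb1, and likewise 0.42 for Grik5 (5.38 with all cells), 2.87 for Supv3l1 (5.04) and 0.62 for Abi2 (4.82).

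Among lower genes, the largest differences rested on Nkx2-5-only cell 2. Atg7, the enzyme that starts the conjugation steps of autophagy, had 0, 0 and 0.0287 RPM in the double-positive CPs, against 9.73, 994 and 191 RPM in the Nkx2-5-only CPs (-5.35), and was clearly present in all 3 Nkx2-5-only CPs. Smpd4, a sphingomyelinase, had 0.0791, 1.53 and 0.516 RPM against 111, 1014 and 37.9 RPM (-5.21). Akap8l had 0, 1.50 and 0 RPM against 1.61, 1458 and 9.14 RPM (-5.57), Trerf1 had at most 0.0287 RPM against 0.0298, 1076 and 0.160 RPM (-5.20), and Wipi1 had 0 against 0.119, 732 and 0.561 RPM (-4.67). Trerf1 was apart by less than the RPM of 1 read. Without Nkx2-5-only cell 2 the differences were -3.46 for Atg7, -2.98 for Smpd4, -0.55 for Akap8l, -0.01 for Trerf1 and -0.05 for Wipi1. Cdc42ep5, an effector of the GTPase CDC42 on septins and actin, was high in all 3 Nkx2-5-only CPs at 47.1, 186 and 79.8 RPM, and at most 0.0273 RPM in the double-positive CPs (-3.51). Ppp2r5a, a regulatory subunit of phosphatase 2A, had 10.9, 0.838 and 0 RPM in the double-positive CPs, against 73.9, 120.2 and 224 RPM in the Nkx2-5-only CPs (-3.43).

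A stricter pattern, 1 RPM or more in all cells of one population and less in all cells of the other, was rare, and it does not mean that the second had no reads. Of 8671 genes with at least 1 RPM in any of the 6 cells, 73 (0.842%) had 1 RPM or more in all 3 double-positive CPs and less in all 3 Nkx2-5-only CPs, and 43 (0.496%) had the reverse. The 73 included Tbx5, Sfrp5, Tnnc1, Popdc2, Mef2c, Smad7 and Vcan. Also among them, Zfyve19 had 47.5, 24.2 and 89.2 RPM against 0 in each Nkx2-5-only cell and so was at least 388-fold higher in mean. Camsap1, which caps microtubule minus ends, had 145, 48.2 and 109 RPM in the double-positive CPs, against 0.0597, 0.169 and 0.561 RPM in the Nkx2-5-only CPs. The homeobox gene Cux1 had 62.3, 40.0 and 33.3 RPM against 0.119, 0.0564 and 0.561 RPM. The 43 included Tcf7l2, Celf2, Atg7 and Cdc42ep5. Atf7ip, a partner of the histone methyltransferase SETDB1, was listed at 0 in all 3 double-positive CPs, against 48.7, 25.2 and 213 RPM in the Nkx2-5-only CPs, at least 1160-fold lower. Gaa, the lysosomal alpha-glucosidase, was also at 0 in the double-positive CPs, against 7.70, 185 and 58.9 RPM, at least 1019-fold lower. Sumf2 had at most 0.0440 RPM against 115, 6.57 and 191 RPM (-3.51). These genes were chosen after their values were seen, other than those that also belong to a list or to the largest differences.

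For the genes apart, the values of each population were set against the range of the 6 EB cells. These genes were selected as apart between the populations, and no such count was made over all genes. Of the 262 higher genes, all 3 double-positive CPs lay outside the range of the 6 EB cells for 52, the 3 Nkx2-5-only CPs did for 17, both did for 2 and neither for 191. Of the 118 lower genes the counts were 4 for the double-positive CPs alone, 24 for the Nkx2-5-only CPs alone, 0 for both and 90 for neither. The genes high in the double-positive CPs and above every EB cell included Tnnt2, Tnnc1, Tpm1, Sfrp5, Rbm24, Popdc2, Flna, Flnc, Zyx, Itga5, Serpinh1, H19, Cpt2 and Pbrm1. For Sfrp5 all 6 EB cells were at 0, and for Rbm24 they reached 4.08 RPM. The genes high in the Nkx2-5-only CPs and above every EB cell included Foxp2, Atg7, Sdhb, Sdhc, Ndufc1, Cenpa and Klhl31. Foxp2 reached 2.03 RPM and Atg7 0.251 RPM in an EB cell. Klhl31, a kelch protein of muscle, had 0.818, 0.301 and 5.76 RPM in the double-positive CPs, against 18.2, 12.3 and 63.4 RPM in the Nkx2-5-only CPs (-1.75) and 0.974 to 7.19 RPM in the EB cells. Men1 and Rpa1 stood among the 17 genes for which the Nkx2-5-only CPs lay below every EB cell, with EB ranges of 48.1 to 287 RPM and 3.93 to 143 RPM. Fabp5, a fatty acid binding protein, was, with the splicing factor gene Sf3b3, one of the 2 genes for which both populations lay outside the EB range, with 105, 91.4 and 36.2 RPM in the double-positive CPs, 1.43, 0.0282 and 2.57 RPM in the Nkx2-5-only CPs and 4.40 to 23.0 RPM in the EB cells. EB Tbx5+ and EB Nkx2-5+ cells were pooled in these ranges, and stage, embryo and population cannot be told apart in them.

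**Figure D5:**
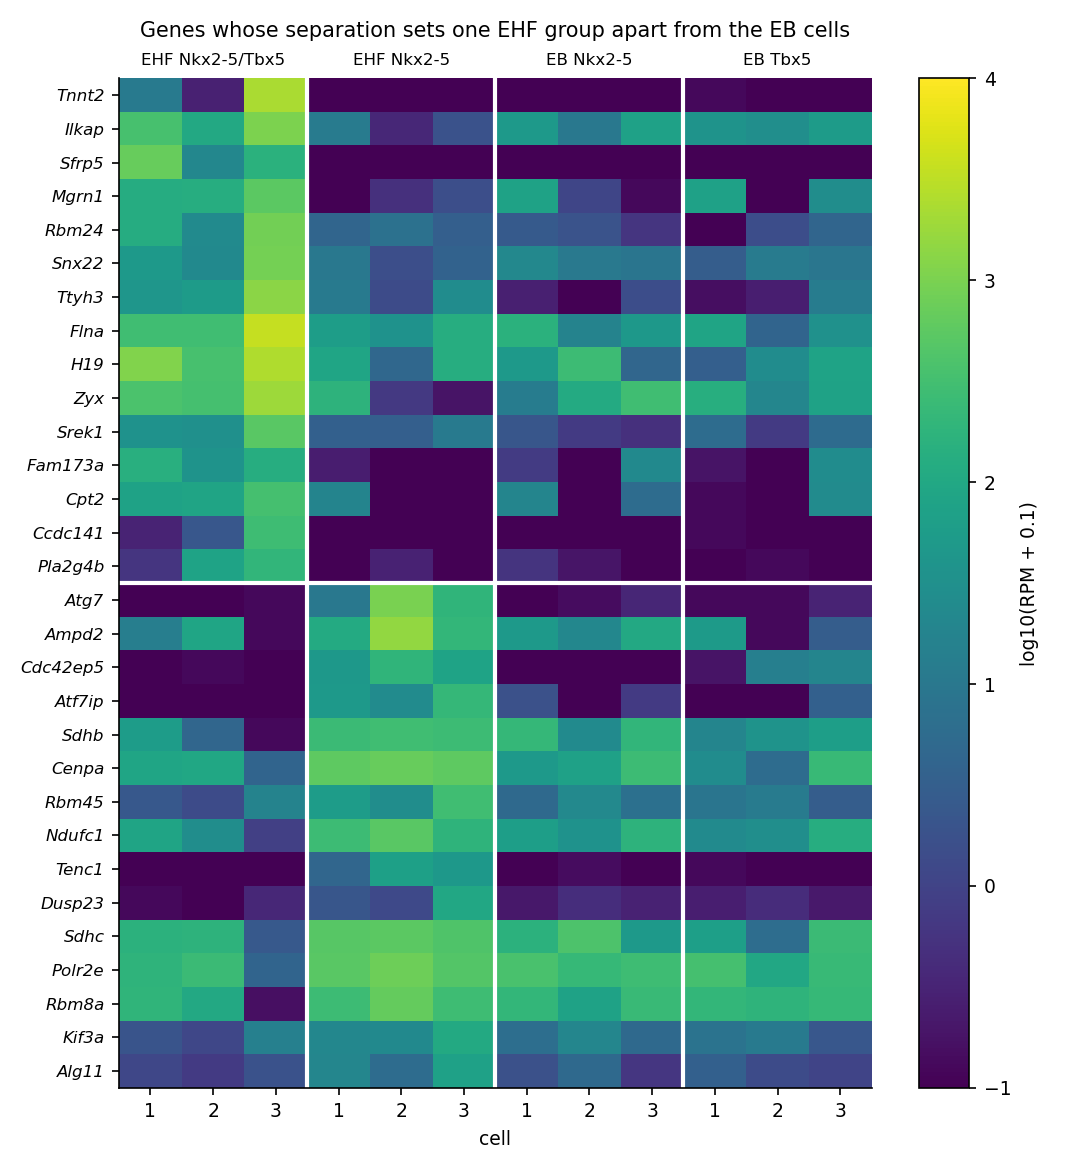
Colour gives log10(RPM + 0.1) of 30 genes in the 12 cells, 3 per column block from left to right for EHF double-positive, EHF Nkx2-5-only, EB Nkx2-5+ and EB Tbx5+ CPs, without Gm, Rik and Mir symbols. The upper 15 genes are those with the largest differences among genes for which all double-positive CPs lie above all Nkx2-5-only and EB cells, and the lower 15 those for which all Nkx2-5-only CPs lie above all double-positive and EB cells.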

How the data were processed

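Per the labels and the study's methods, single cells were picked by pipette, so no doublet caller was run, and their tailed cDNA went through 20 PCR cycles before Nextera libraries were sequenced on an Illumina GA IIx. The authors used Partek Genomic Suite for annotation and scaling and deposited the signal as RPM over the aligned reads of each cell. Build mm10 and CASAVA 1.7.0, without its step, stand in the submitters' processing notes. For the aligner, no name was given in the sources used here. The sheet holds 64 copies of its values, of which the first was used. Of 14085 names, 22 turned into dates were left out, and 707 values below 1e-06 RPM were set to 0. Groups and replicate numbers came from the labels.

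Differences are log2 of the ratio of mean RPM + 10, among genes averaging 10 RPM or more. No test was made. The comparison, its members and the 33 gene lists were chosen with earlier results of these data known. The text names genes by this rule: up to 15 genes with the largest difference in each direction among genes apart, up to 4 members of each list with the largest absolute difference, members of a list with 1 RPM or more in all cells of 1 population and under 1 RPM in the other, and marker genes and genes that the study discusses. Genes named outside it, all of which were chosen after their values were seen, are Acadm, Actb, Actn2, Acvr2b, Atf4, Camsap1, Cdkn1c, Chd2, Chd4, Creld2, Csrp2, Cux1, Fabp5, Fgf9, Flnc, Foxc1, Gaa, Itga5, Kif23, Klhl31, Mybpc3, Myl4, Myl6, Ndufc2, Nr2f2, Pdlim7, Popdc2, Ppib, Prickle1, Rpl10a, Rpl41, Rplp2, Rps13, Sec61b, Serpinh1, Sfrp1, Smarca4, Smarce1, Sp8, Spry2, Sf3b3, Tpm1, Wnt4, Ryk and Zfyve19, together with Ier5 and Klf2 at the minimum. Alternatives were 1 or 100 RPM added, means of log2 values, medians over cells, values rescaled to leave out the 100 most abundant genes, other minimums (none, 50 RPM) and leaving out cells. Centring and larger gaps between nearest cells were added after seeing the data. On simulated cells with a small spread the steps recovered known differences, a setting unlike the wide spread between these cells. RefSeq symbols matched 13223 genes and synonyms 769. The work used Python 3.11.15 with numpy 2.4.6, pandas 2.3.3 and scipy 1.17.1, and figures were drawn in matplotlib 3.10.9.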

Additional observations from a re-analysis of the deposited data

How the results depend on the processing

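No paired analysis was possible because the replicate numbers name cells of no stated common embryo and no result comes from a test. The directions of most differences held, but their sizes depended on the amount added, the minimum and single cells, and the cause was not tested.

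Genes at least 2-fold higher in the double-positive CPs numbered 1808, and 376 with 100 RPM added or 661 with a minimum of 50 RPM. Those at least 2-fold lower numbered 1059, and 279 with 100 RPM added, 490 with the minimum of 50 RPM and 690 on medians over cells. Rescaled without the 100 most abundant genes, the counts were 1532 and 1227. Leaving out 1 cell in turn gave 1347 to 2444 and 843 to 1475, with more lower than higher genes only without double-positive cell 2 (1347 and 1475). Genes apart, 262 higher and 118 lower, numbered 459 and 393 without a minimum, 108 and 51 at 50 RPM, 111 and 40 with a 2-fold gap, and 1193 and 515 without the cell of each population with the fewest genes. With 1 cell left out they numbered 340 to 991 and 149 to 450, as a group of fewer cells overlaps less often. The 73 and 43 genes at 1 RPM or more in all cells of 1 population and under it in all of the other became 106 to 315 and 64 to 185 with 1 cell left out, and 427 and 222 without the cells with the fewest genes. The 54 genes above and 24 genes below that also set their high population above all EB cells became 82 and 117 without a minimum, 25 and 13 at 50 RPM, 270 and 129 without the cells with the fewest genes, and 56 to 244 and 28 to 116 with 1 cell left out.

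With 1 cell left out, the median of 16 of 32 lists changed sign, and that of all genes (0.48) ranged from -0.10 to 1.40. Among lists with a median of at least 1 in size, 4 turned. SHF genes (1.41) had -0.0122 on medians over cells and -0.0073 with no minimum, and -0.58 to 1.89 with 1 cell left out. WNT antagonists and non-canonical genes (1.25) had -0.86 when rescaled, -0.22 at 50 RPM and -2.14 to 1.76 with 1 cell left out. BMP genes (1.03) had -0.0001 on medians, -0.0067 with no minimum, -1.14 at 50 RPM and -0.47 to 1.75 with 1 cell left out. NOTCH genes (1.13) had -1.30 at 50 RPM and -0.59 to 1.36 with 1 cell left out. Of the genes named, Hes1 had 0.79 without the cells with the fewest genes, against -5.22 in the main setting. Without the same cells Fos, Fosb, Hspa1a and Gadd45a had 3.71, 2.77, 0.31 and 0.28. On medians over cells those 4 had 0.0212, 0.98, 0.14 and 0.38, while Notch1 had -0.0122 and Ryk 0.0281. With 1 cell left out, the differences ranged from -5.98 to 0.53 for Hes1, from -7.95 to 3.18 for Fos, from -6.16 to 2.28 for Fosb, from -5.62 to 0.26 for Hspa1a, from -5.69 to 0.31 for Gadd45a, from -3.10 to 0.0783 for Frzb, from -2.86 to 0.0963 for Id1, from -5.08 to 0.46 for Lamb1, from -1.47 to 2.60 for Notch1, from -0.18 to 1.63 for Rbpj and from -3.45 to 1.50 for Ryk. For the gene values, none reversed with another amount added or when rescaled.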
